A study of Mus musculus with 8 samples.

Results

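The genes described here serve the folding, import and disposal of proteins in the endoplasmic reticulum (ER), and they were measured in mouse keratinocytes without type I keratins (KO) and in wild-type (WT) cells. The set is a fixed list of 38 genes grouped by role into chaperones of the Hsp70 and Hsp90 type with their cofactors, lectin chaperones, disulfide isomerases, stress sensors with Xbp1, genes of ER-associated degradation, and the translocon with signal peptidase. A probe was present for 34 of them, among 16593 genes with a probe in all, and 29 were bright enough to test among 9881 tested genes. Atf6, Dnajb11, Sdf2l1 and Sec61g had no probe under these names and were not analysed here.

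The study compared 2 genotypes of the C57Bl6 strain. The KO cells carried a type I keratin knockout and the WT cells did not, and both were keratinocytes isolated from E18.5 embryo skin, grown to a confluent layer before their total RNA was hybridised to Illumina arrays. Each genotype had 4 arrays, numbered 1, 2, 3 and 1.1, of which 1.1 is labelled as a second replica of 1. WT arrays 1 and 1.1 were close (SD of their log2 differences 0.205), whereas KO array 1.1 lay close to KO array 3 (0.213) and not to KO array 1 (0.640). Each close pair was averaged and counted once, leaving 3 KO and 3 WT replicates. Whether replicates stem from different embryos is not stated in the labels, and p-values cover the spread among these cultures or preparations only. Values are intensities, with a nearly identical distribution on all arrays, and differences are KO minus WT on the log2(intensity + 16) scale, which understates changes of dim genes.

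The targeted genes matched the labels. The type I keratin Krt14 read -1.37 to 9.28 in the KO replicates and 17836 to 19131 in WT, and Krt17 -4.43 to 0.81 and 17836 to 18312. Keratinocyte markers were present in both genotypes, with 8 to 9 of 9 above background per KO array and 9 of 9 per WT array. Of the 8 other than Krt14, 7 had a negative difference (median -0.20). Krt5, the basal type II keratin, differed by -0.06 ± 0.18 (SE), and Trp63, the factor of the basal lineage, by -0.67 ± 0.20 without overlap (SE; limma adjusted p = 0.146). Of markers of other cells, leukocyte genes summed to at most 9.87 per KO array and 18.4 per WT array, with Ptprc, Cd52 and Tyrobp above background on no array. Melanocyte markers (6 genes) summed to 357 to 1614 per KO array and 916 to 3469 per WT array, and fibroblast markers (10 genes) to 303 to 818 and 96.0 to 1366, with Col1a2 and Postn above background on no array. Endothelial markers (5 genes) summed to 250 to 327 and 241 to 379, with Cdh5 above background on no array. Most of the endothelial sum came from Egfl7, at 225 to 310 on the KO arrays and 220 to 360 on the WT arrays. The part of these cells in the results below was not tested. In bulk RNA, fewer cells of a type and less RNA per cell cannot be told apart.

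The endoplasmic reticulum folds secreted and membrane proteins. When unfolded proteins accumulate, the sensors Ern1 (IRE1), Atf6 and Eif2ak3 (PERK) start the unfolded protein response: IRE1 splices Xbp1 mRNA, ATF6 is cut to a free transcription factor, and PERK slows translation while favouring that of Atf4. XBP1 and ATF6 act on chaperone and degradation genes, many of which carry the ER stress response element, while ATF4 acts on genes of amino acid supply and stress. Keratinocytes are known to engage parts of this response as they differentiate.

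The response elements by which this pathway is known to act on its target genes are shown first, for Herpud1 and for chaperones described below. RefSeq promoter windows of build GRCm38.p6, from 250 bases before to 50 after each annotated start, were at hand for 31 of the 38 genes and searched on both strands. The ER stress response element, CCAAT followed after any 9 bases by CCACG, occurred in 9 of these 31 genes (29.0%), against 0.137% of 27025 genes. The element is known from promoters of such genes, so its count describes the list and is no finding of these arrays. Its second form, ATTGG followed after 1 base by CCACG, occurred in Herpud1 and Dnajb11 among the members and in 0.044% of all genes. Herpud1 was also the only member whose window held the core of the ATF4 site, TGATG followed after 1 base by AA, which 4.51% of all genes held. CCACG alone, which both forms contain, was found in 26 of the 31 genes and in 35.5% of all genes, and the unfolded protein response element TGACGTGG, which also contains CCACG on its other strand, only in Vcp among the members and in 0.714% of all genes. Only exact matches were counted, so a near match counts as absent. The Herpud1 window, for example, holds CCAAT followed after 9 bases by CCACA. A match is a description of letters and not of binding.

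The windows of Herpud1 (chr8:94386179-94386478, plus strand), Hspa5 (chr2:34771840-34772139, plus strand), Hsp90b1 (chr10:86705395-86705694, minus strand) and Calr (chr8:84846882-84847181, minus strand) follow, 5′ to 3′ on the gene's strand. The matched bases of the elements are in capitals and all other bases in lower case. The element of Calr, 1 of those of Hsp90b1 and the ATF4 core of Herpud1 lie on the other strand and are therefore read in reverse complement.
Herpud1: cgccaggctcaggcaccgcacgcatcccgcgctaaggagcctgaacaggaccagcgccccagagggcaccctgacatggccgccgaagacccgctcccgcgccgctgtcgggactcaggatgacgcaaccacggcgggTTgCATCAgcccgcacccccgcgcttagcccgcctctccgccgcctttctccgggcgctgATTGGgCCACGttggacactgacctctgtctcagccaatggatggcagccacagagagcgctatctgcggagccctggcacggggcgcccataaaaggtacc
Hspa5: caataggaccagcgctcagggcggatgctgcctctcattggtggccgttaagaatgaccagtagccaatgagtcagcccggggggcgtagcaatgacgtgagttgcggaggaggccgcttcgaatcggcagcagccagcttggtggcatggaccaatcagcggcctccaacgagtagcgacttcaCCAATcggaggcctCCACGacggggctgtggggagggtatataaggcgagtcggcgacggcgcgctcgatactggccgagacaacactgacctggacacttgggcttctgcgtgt
Hsp90b1: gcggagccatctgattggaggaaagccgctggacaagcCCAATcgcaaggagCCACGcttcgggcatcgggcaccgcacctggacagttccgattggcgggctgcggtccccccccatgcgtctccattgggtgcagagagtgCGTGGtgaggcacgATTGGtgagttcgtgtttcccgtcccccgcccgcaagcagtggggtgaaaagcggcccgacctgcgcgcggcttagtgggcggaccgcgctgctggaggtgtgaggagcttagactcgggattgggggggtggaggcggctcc
Calr: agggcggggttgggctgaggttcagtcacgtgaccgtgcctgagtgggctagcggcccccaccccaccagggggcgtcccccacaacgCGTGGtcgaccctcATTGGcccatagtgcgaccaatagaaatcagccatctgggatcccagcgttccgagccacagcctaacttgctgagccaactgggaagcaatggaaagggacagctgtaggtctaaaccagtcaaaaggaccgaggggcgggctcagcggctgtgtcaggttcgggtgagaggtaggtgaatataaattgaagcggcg

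In the remaining carriers the element is shown alone, on the strand that reads CCAAT first. It began 105 bases before the start in Dnajc3 and 44 before it in Syvn1.
Dnajc3: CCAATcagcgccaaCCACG
Pdia6: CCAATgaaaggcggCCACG
Creld2: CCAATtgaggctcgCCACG
Syvn1: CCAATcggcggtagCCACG
Canx: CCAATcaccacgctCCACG
Derl3: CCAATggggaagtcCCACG

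**Figure D1:**
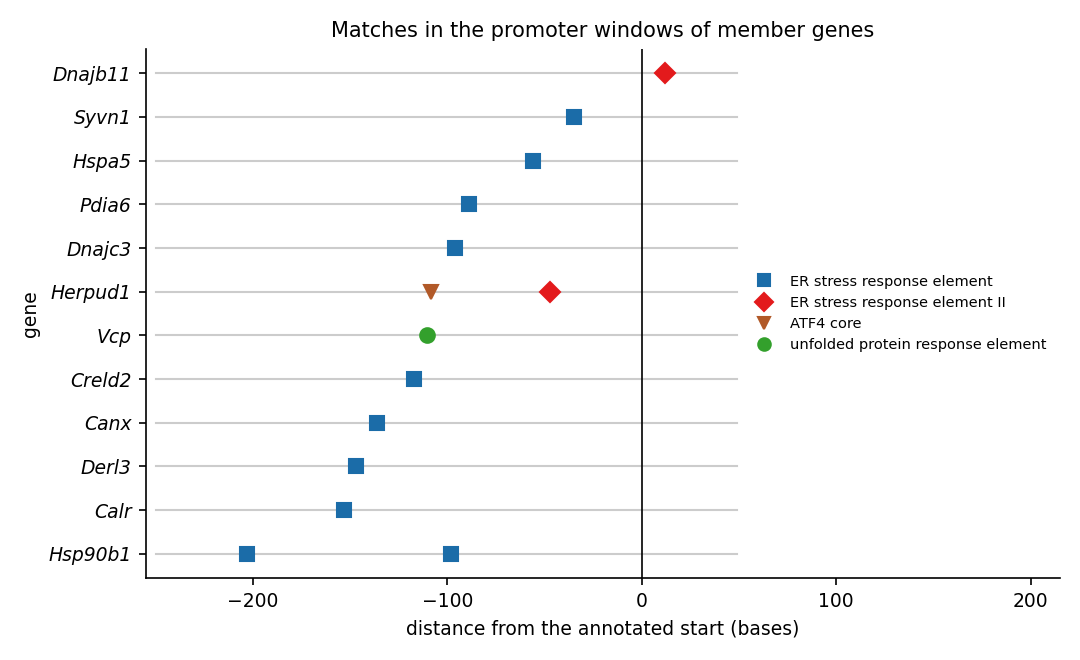
Positions of the response elements in the promoter windows of the 12 member genes that hold one, in bases from the annotated start (vertical line). Grey lines are the windows; squares mark the ER stress response element, diamonds its second form, the triangle the ATF4 core and the circle the unfolded protein response element. Herpud1 alone carries the second form together with the ATF4 core, and Hsp90b1 holds 2 copies of the first form.

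Over all genes 70 of 9881 passed limma's test (0.708%), and the 29 tested members held no such gene (lowest adjusted p = 0.0725). An unadjusted p under 0.05 was found for 5 members, which is 17.2% of those tested, against 17.1% of all genes. Of these, 3 were higher and 2 lower in KO, and over all genes 8.45% were higher and 8.68% lower at this level. Replicates of the genotypes did not overlap for 4 members, 3 higher and 1 lower (13.8%, against 22.5% of all genes, of which 11.6% were higher and 10.9% lower). The first share was close to that of all genes and the second below it. A negative difference was found for 12 of 29 members (47.5% of all genes), and Herpud1 alone differed by more than 1 log2 unit (4.57% of all genes). The median difference was 0.02 over the members and 0.02 over all genes, and the median size of a difference, whatever its sign, was 0.16 and 0.21. The adjusted p values below are from limma with Benjamini-Hochberg adjustment over all tested genes.

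**Figure D2:**
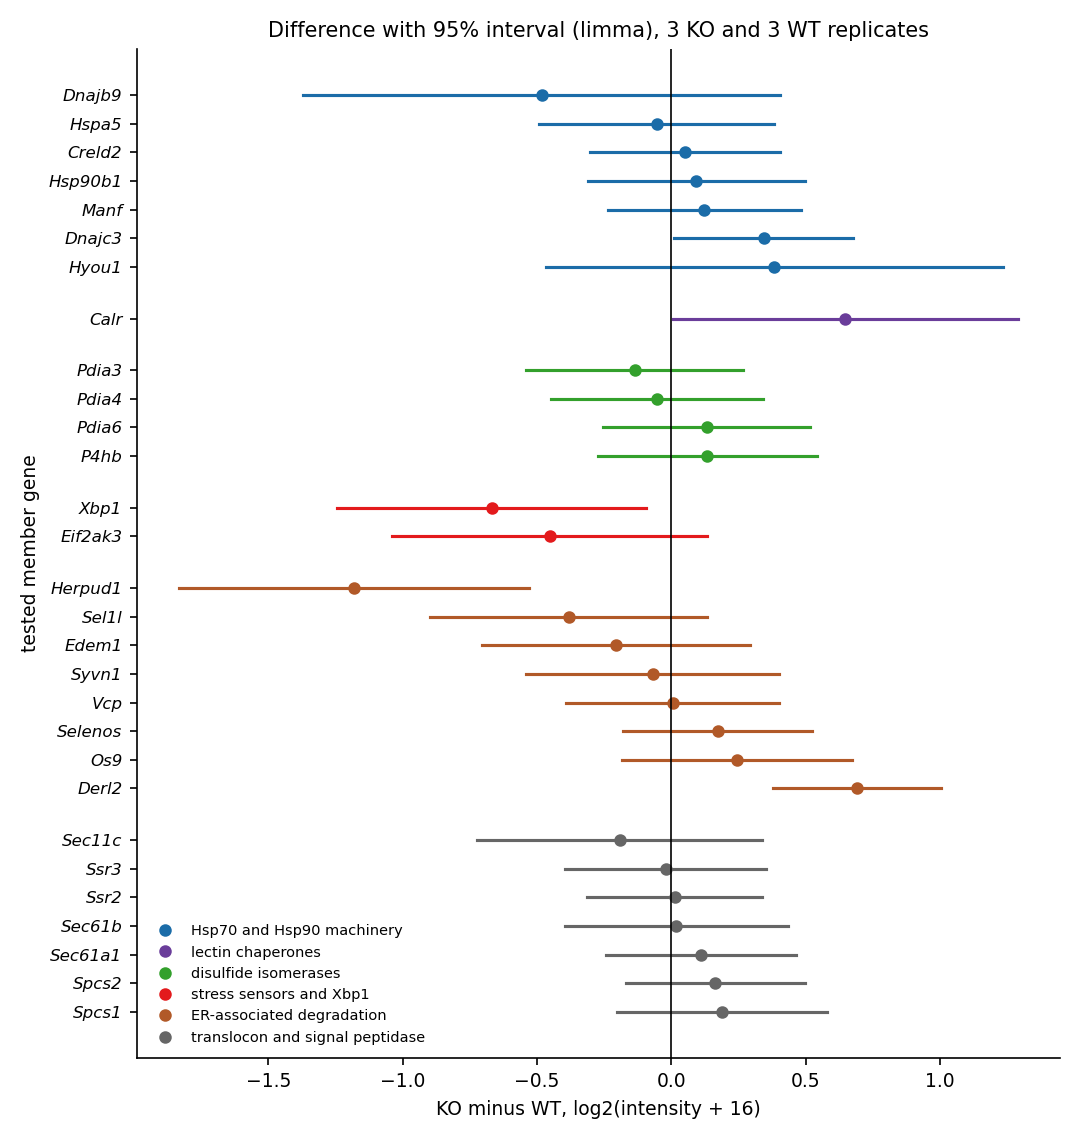
KO minus WT difference on the log2(intensity + 16) scale for each of the 29 tested members, ordered within role groups by colour; points are estimates and lines 95% intervals from limma with 3 replicates per genotype. Most chaperone, isomerase and translocon genes lie near 0, Herpud1 lies lowest at -1.18 and Derl2 highest at 0.69.

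The general chaperones, the isomerases and the import machinery showed little difference. Over these 18 tested genes the median difference was 0.07, and the median size of a difference 0.13, against 0.21 over all genes. The 95% interval lay within 1 log2 unit of 0 for 16 of them, and for 7724 of all 9881 tested genes. Hspa5 (BiP), the Hsp70 of the ER lumen that also holds the sensors inactive, read 189, 246 and 263 in KO and 271, 256 and 199 in WT, here and below in the order of replicates 1, 2 and 3. The ranges overlapped, with the lowest KO and the lowest WT reading close together, and the difference was -0.06 ± 0.19 (SE; 95% interval -0.49 to 0.38; adjusted p = 0.917). Hsp90b1 (GRP94), the Hsp90 of the ER, read 3758, 4994 and 4340 in KO and 3840, 4685 and 3733 in WT, again with overlap. Its difference was 0.09 ± 0.17 (SE; interval -0.31 to 0.50; adjusted p = 0.831).

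Of the cofactors, Dnajc3 (P58IPK), a J-domain co-chaperone of BiP, read 249, 273 and 248 in KO and 211, 178 and 208 in WT. All KO readings were above all WT readings, and the difference of 0.34 ± 0.14 (SE) did not pass (adjusted p = 0.275). Dnajb9 (ERdj4), a BiP co-chaperone and known target of XBP1, read 219, 294 and 528 in KO and 529, 632 and 290 in WT. KO replicate 3 read nearly as high as WT replicate 1, and WT replicate 3 as low as KO replicate 2, so the difference of -0.48 had an interval of -1.37 to 0.40. Hyou1, an Hsp110-like exchange factor of BiP, read 69.5, 74.9 and 122 in KO and 113, 32.7 and 61.1 in WT, and differed by 0.38 (interval -0.47 to 1.23). Creld2, a secreted ER stress gene, differed by 0.05 ± 0.15 (SE), and its second bright probe by 0.14. Manf, a secreted factor induced by ER stress, was above the background limit of 6.30 on only 3 of the 8 arrays, with replicates between 2.25 and 8.12.

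Of the lectin chaperones, which hold glycoproteins during folding, Calr (calreticulin) read 411, 543 and 411 in KO and 187, 298 and 401 in WT. The groups did not overlap, but WT replicate 3 lay just under the KO readings. The difference was 0.65 ± 0.27 (SE; interval 0.0049 to 1.29; adjusted p = 0.289), and without WT replicate 3 it was 0.89, without WT replicate 1 0.37. The single probe of Canx (calnexin), its membrane-bound relative, was above background on no array (0.11 to 5.50).

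The 4 disulfide isomerases, which form and rearrange disulfide bonds, differed by -0.14 to 0.13. P4hb (PDI) read 3511, 3767 and 4996 in KO and 3690, 3847 and 3520 in WT, with KO replicate 3 above all others. Its difference was 0.13 ± 0.17 (SE; adjusted p = 0.747). Pdia3 (ERp57), which works with the lectin chaperones, differed by -0.14 ± 0.17, Pdia4 (ERp72) by -0.05 ± 0.17 and Pdia6 (P5) by 0.13 ± 0.16 (SE).

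The 7 tested translocon and signal peptidase genes differed by -0.19 to 0.19, with a median of 0.02. Every 95% interval lay within 1 log2 unit of 0, as it did for 7724 of all 9881 tested genes. Sec61b, a small subunit of the channel through which new proteins enter the ER, read 37.6, 52.7 and 54.2 in KO and 39.6, 45.8 and 56.5 in WT, and differed by 0.02 ± 0.18 (SE; adjusted p = 0.974). Its second bright probe differed by -0.01. Sec61a1, the channel itself, differed by 0.11, the translocon-associated Ssr2 and Ssr3 by 0.01 and -0.02, and the signal peptidase subunits Spcs1, Spcs2 and Sec11c by 0.19, 0.16 and -0.19. Ssr1 read between -5.33 and -1.74 and was above background on no array.

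**Figure D3:**
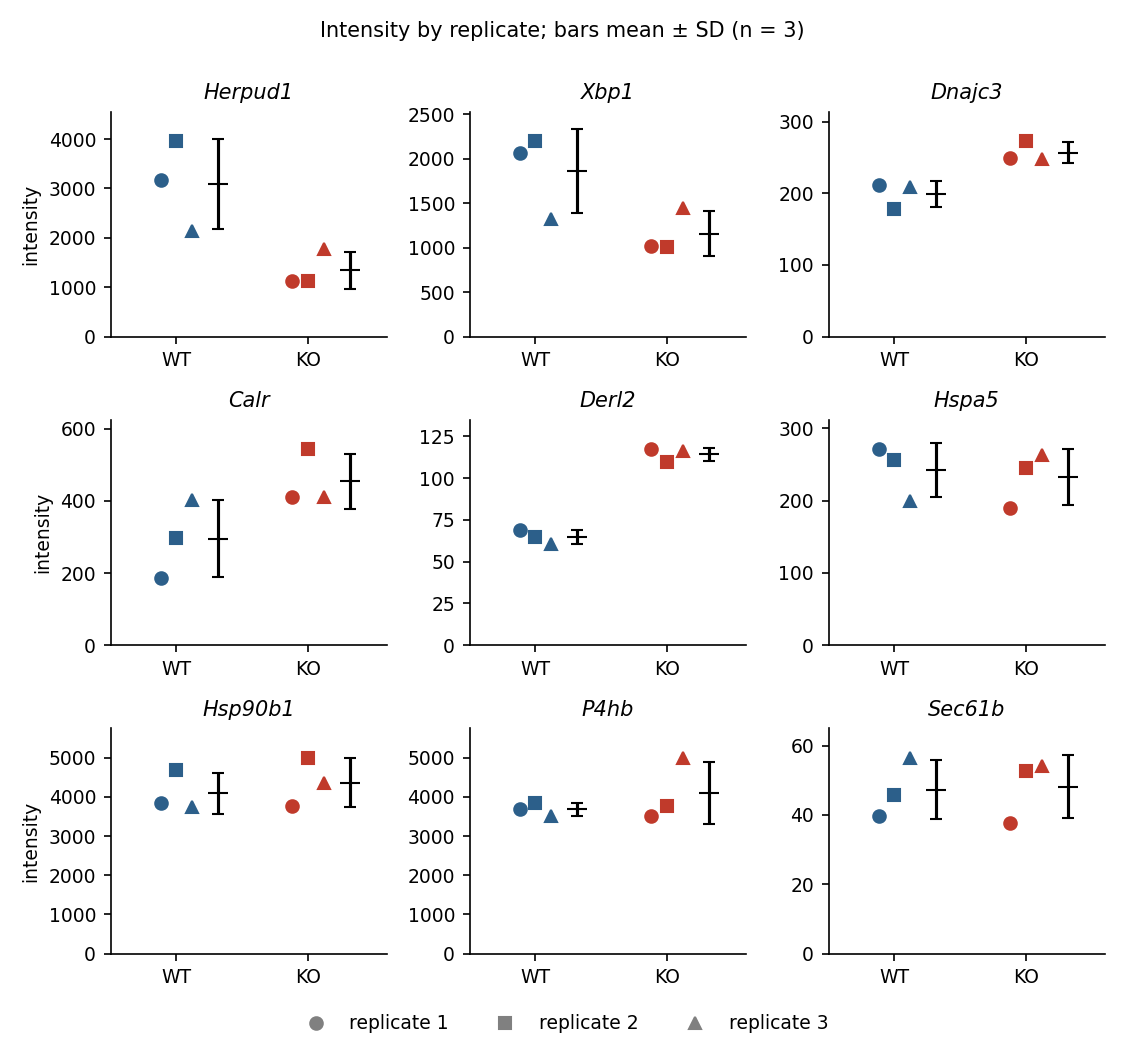
Intensity of 9 member genes in each replicate (WT blue, KO red; circle, square and triangle for replicates 1, 2 and 3), with bars for the mean ± SD of 3 replicates per genotype, on linear axes from 0. Herpud1 and Xbp1 are lowest in KO replicates 1 and 2, with replicates 3 of the genotypes closest to each other, whereas Derl2 separates the genotypes in a narrow range.

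Degradation genes held the members with the lowest and the highest difference. Herpud1 (HERP), a membrane protein that organises the ubiquitin ligase complex of ER-associated degradation, read 1137, 1122 and 1768 in KO and 3168, 3963 and 2139 in WT. All KO replicates were below all WT replicates, and the smallest gap lay between the replicates numbered 3. The mean was 1342 ± 369 in KO and 3090 ± 914 in WT (SD, n = 3 each), a 2.27-fold lower level on the scale with the offset. The difference of -1.18 ± 0.28 (SE; interval -1.83 to -0.53) did not pass over all genes (adjusted p = 0.106). It passed in limma with array weights (adjusted p = 0.0195), with all 8 arrays and a random block (0.0387) and without KO replicate 3 (0.0493), and its adjusted p ran up to 0.330 in the other alternatives. Over all genes these fits called 940, 277 and 264 genes in place of 70. The array weights were lowest for KO replicate 3 (0.41), so the first and the last of these fits both discount that replicate. An exact two-sided permutation test over the 6 replicates gave p = 0.1, the smallest that 3 against 3 can give. A second bright probe differed by -1.14. The direction of Herpud1 was known from earlier results of these data and is not independent support.

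Derl2 (derlin-2), a membrane protein of the channel that returns misfolded proteins to the cytosol, went the other way. Its brightest probe read 117, 110 and 116 in KO and 69.0, 65.1 and 60.5 in WT, with a wide gap between tight groups. The difference was 0.69 ± 0.13 (SE; interval 0.38 to 1.00), a 1.61-fold higher level, and did not pass over all genes (adjusted p = 0.0725), though it did with array weights (adjusted p = 0.0245) and with the 1.1 arrays averaged as labelled (0.0383). The mean of all 3 probes that passed the filter, in place of the brightest, gave a difference of 0.34 ± 0.13 (SE; adjusted p = 0.252). A second bright probe differed by 0.46, with 67.6 to 95.1 on the KO arrays and 49.4 to 61.0 on the WT arrays. The third probe, at 0.26 to 8.53, was above background on 3 arrays and differed by -0.13, so the probes disagreed in sign only where 1 was dim. Derl1 was above background on 1 of 8 arrays for 1 of its 3 probes, and Derl3 on none.

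The core of the ubiquitin ligase complex lay between them. Sel1l, the adaptor of the ligase, read 346, 392 and 574 in KO and 637, 583 and 477 in WT and differed by -0.38 ± 0.22 (SE; adjusted p = 0.432). Its second well-measured probe differed by -0.31 and a dim one by -0.02. Syvn1 (HRD1), the ligase itself, differed by -0.07 ± 0.20, and Edem1, a lectin that delivers glycoproteins for degradation, by -0.21 ± 0.21. Os9, another such lectin, differed by 0.24 ± 0.18, Selenos, which recruits the extraction machinery, by 0.17 ± 0.15, and Vcp (p97), the ATPase that pulls substrates out, by 0.0049 ± 0.17 (SE). None of these 6 passed (adjusted p 0.432 to 0.993).

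Xbp1, the transcription factor that IRE1 activates by splicing, read 1019, 1006 and 1448 in KO and 2068, 2203 and 1328 in WT. KO replicate 3 was above WT replicate 3, so the groups overlapped. The difference was -0.67 ± 0.25 (SE; interval -1.24 to -0.09; adjusted p = 0.231), and it passed only with array weights among the 18 alternatives (adjusted p = 0.0423). The probe does not tell spliced from unspliced mRNA, so the activity of IRE1 was not measured. Eif2ak3 (PERK) read 113, 101 and 177 in KO and 208, 205 and 134 in WT, with the same overlap, and differed by -0.45 ± 0.25 (SE; adjusted p = 0.412). The Ern1 probe was above background on 1 of 8 arrays.

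Herpud1, Xbp1, Eif2ak3, Sel1l and Dnajb9, chosen after their values were seen, shared an order of replicates: KO replicate 3 was the highest KO reading and WT replicate 3 the lowest WT reading. This held for 13 of the 29 members (44.8%, against 16.6% of all tested genes). Of the 12 members lower in KO it held for 9 (75.0%, against 23.5% of all genes lower in KO). Both counts include the chosen members, so they are no independent support for the order. The mean level of keratinocyte differentiation markers had the same order. Not every marker did: Krt1 was highest in KO replicate 1 and Krtdap in KO replicate 2. Without Krt10, a type I keratin at background in KO, 8 such genes averaged 8.40, 8.46 and 10.17 on the log2 scale in KO and 9.02, 9.06 and 8.24 in WT, in the order of replicates 1, 2 and 3. Over all 9 markers the summed intensity was 8447 to 23006 per KO array and 12411 to 21573 per WT array. The part of differentiation in these results was not tested.

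Among the other ER genes of the fixed lists, none of 83 tested passed over all genes. An unadjusted p under 0.05 was found for 17 (20.5%, close to the 17.1% of all genes). The directions were uneven, with 2 higher and 15 lower, while over all genes 8.45% were higher and 8.68% lower at this level. The 15 lower genes were mostly ATF4 targets. In that list of 15, 11 had an unadjusted p under 0.05, all lower (8.68% of all genes), and the median difference was -0.88. The cystine transporter gene Slc7a11 and the phosphatase subunit gene Ppp1r15a were the 2 with a positive difference, at 0.70 ± 0.31 and 0.089 ± 0.22 (SE). Cebpb, a transcription factor that is also part of keratinocyte differentiation, read 1643 ± 433 in KO and 3191 ± 243 in WT (SD, n = 3 each; adjusted p = 0.0906), and Trib3, a pseudokinase that restrains ATF4 signalling, 15.5 ± 6.89 and 71.0 ± 31.7 (adjusted p = 0.0984). On the log2 scale this list averaged 7.66, 7.84 and 8.39 in the KO replicates and 9.05, 9.11 and 8.37 in the WT replicates. Here too KO replicate 3 stood highest and WT replicate 3 lowest, and these 2 nearly met. The ATF4 core stood in the promoter windows of 7 of the 14 list genes that had one, against 4.51% of all genes. The list was drawn up as targets of PERK and ATF4, so this count describes the list and is no finding of these arrays. The differences of the 7 genes with the core ran both ways: Nupr1 -2.39, Chac1 -1.88, Trib3 -1.41, Vldlr -1.39, Asns -0.88, Atf3 -0.16 and Slc7a11 0.70.

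The other lists resembled the chaperones. Of 13 further folding genes, 1 had an unadjusted p under 0.05: Mogs, the glucosidase that starts glycan trimming, at 318 ± 54.1 in KO and 513 ± 38.9 in WT (SD, n = 3 each; adjusted p = 0.110), while Prkcsh, the glucosidase II beta subunit, differed by 0.26 ± 0.14 (SE; adjusted p = 0.394). Of 17 further degradation genes, 2 did: Erlin1, part of a complex that marks activated calcium channels for degradation, differed by -0.54 ± 0.15 (SE; adjusted p = 0.131) and the ubiquitin ligase Rnf139 by -0.50 ± 0.17 (adjusted p = 0.202). Of 25 translocation and glycosylation genes, 1 did: Sec63, which couples BiP to the translocon, at 843 ± 71.8 in KO and 550 ± 64.3 in WT (SD; adjusted p = 0.115), while Stt3a, a catalytic subunit of oligosaccharyltransferase, differed by 0.36 ± 0.17 (SE; adjusted p = 0.323). Of 13 genes that process ATF6 or relate to it, 2 did: Wfs1, an ER membrane protein, differed by 0.56 ± 0.16 (adjusted p = 0.143) and the factor Creb3l4 by -0.43 ± 0.16 (adjusted p = 0.239). Creb3l4 and Rnf139 were dim, with KO replicates at 2.52 to 9.31 and 8.35 to 13.8. In WT they read 11.8 to 13.1 and 16.8 to 27.9. The medians of these 4 lists lay between -0.06 and 0.06.

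**Figure D4:**
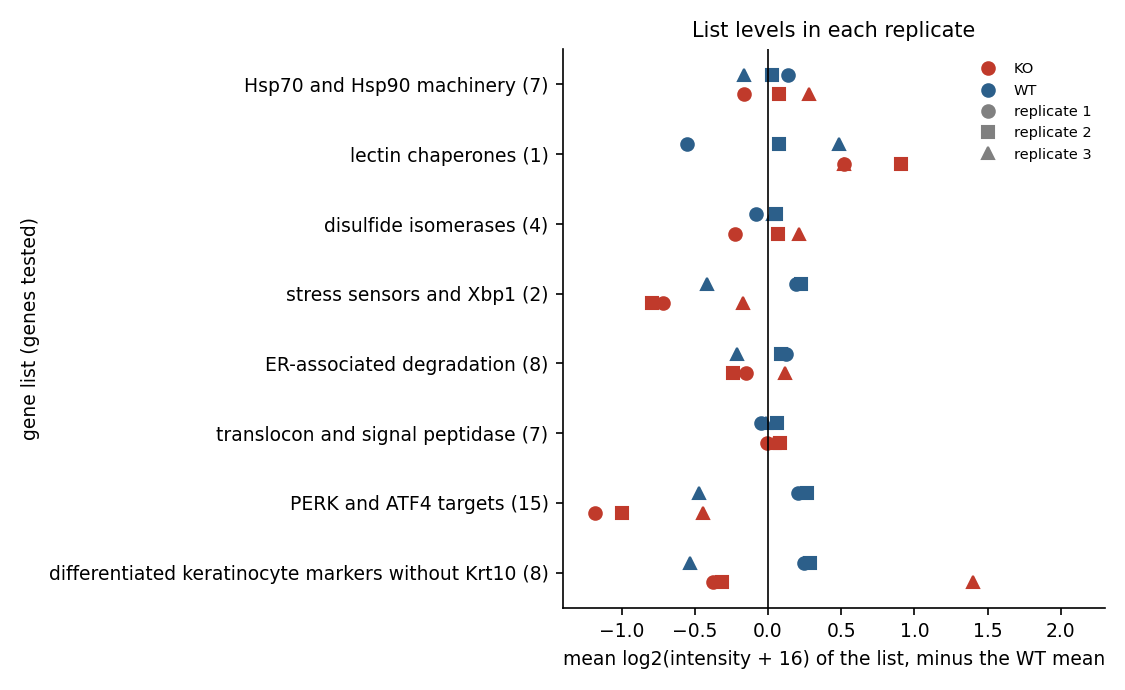
Mean log2(intensity + 16) of each gene list in every replicate, minus the mean of the 3 WT replicates (WT blue, KO red; marker shape gives the replicate number; the number of tested genes is in brackets). The Hsp70 and Hsp90, isomerase and translocon lists cluster near 0. The lectin chaperones, with Calr alone tested, lie above all WT replicates in KO. The sensors with Xbp1 and the ATF4 targets are low in KO replicates 1 and 2 and near WT replicate 3 in KO replicate 3. The differentiation markers are high in KO replicate 3.

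Set against the promoter elements, the 7 tested members with the ER stress response element had a median difference of 0.09 (-0.07 to 0.65), with 5 positive and 2 negative. The 17 tested members with a window but without an exact match to it had a median of -0.02 (-1.18 to 0.69), with 8 positive and 9 negative. Members with a near match, such as Herpud1, fall in this group. The groups overlapped and were not tested against each other. Herpud1, shown above with the second form and the ATF4 core, lay at the low end, and 5 of the 7 tested carriers of the first form, Hspa5, Hsp90b1, Pdia6, Creld2 and Syvn1, lay between -0.07 and 0.13. The other two, Dnajc3 and Calr, lay at 0.34 and 0.65.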

How the data were processed

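Total RNA of 8 keratinocyte samples was labelled with biotin for Illumina arrays, per the labels' protocols. The deposited table holds a linear intensity for 25697 probes per array. The sources used here do not state the normalization. The values point to background subtraction and quantile normalization: 27.1% to 27.3% of probes were negative and all arrays shared a minimum of -12.8 and a maximum of 20141. A further table was not used, since its 16 value columns match no label. Probes were named through the platform annotation and updated by gene ID (GRCm38.p6): 23978 had 1 symbol and 1719 none.

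The background limit, an intensity of 6.30, leaves 5% of the mirrored negative values above it. A probe was kept if above the limit on at least 3 arrays, and the brightest probe of a gene was tested. Arrays of a genotype forming a mutually nearest pair with an SD under 0.3 were averaged. Genotypes were compared on log2(intensity + 16), computed from the deposited intensities, with limma 3.58.1 in R 4.3.3 (lmFit, eBayes) and Benjamini-Hochberg adjustment, called under 0.05. The number of arrays limits the precision.

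The members and lists were chosen with earlier results of these data known. Values by replicate are given for Hspa5, Hsp90b1, Calr, P4hb, Xbp1, Herpud1 and Sec61b, for members with an unadjusted p under 0.05, the 4 largest differences and probes disagreeing in sign, and means or differences for the 2 genes of smallest p in each further list. Dnajb9, Hyou1, Sel1l and Eif2ak3 were added after their values were seen. On simulated data for these 9881 genes the fit called 48.0%, 94.0% and 98.0% of genes changed by 1, 2 and 3 log2 units, and 2.00% of those changed by 0.5, with 3.97% false calls. The simulated noise was normal and independent between genes, and only a small part of the genes was changed. These rates may therefore not hold for replicates that share patterns across genes, as these do. Alternatives covered array pairing, offset, filter, probe choice, prior, weights, centring, a replicate block and each replicate left out.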

Additional observations from a re-analysis of the deposited data

How the results depend on the processing

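The number of members called, 0 of 29 in limma, was 1 with the 1.1 arrays averaged as labelled (Derl2), 1 with all 8 arrays and a random block for the close pairs (Herpud1), 3 with array weights (Derl2, Herpud1 and Xbp1) and 0 to 1 over fits leaving out a replicate (Herpud1 without KO replicate 3). Over all genes these settings called 261, 277, 940 and, without KO replicate 3, 264 genes in place of 70, so more calls came throughout. Without KO replicate 1 or 2, or WT replicate 1 or 2, 11, 9, 5 and 8 genes were called. With the replicate block 21 genes and 0 members were called, and with an offset of 4 (values floored at 0) 44 genes. The replicate numbers share only a number. After each gene's genotype mean was subtracted, same-numbered KO and WT replicates correlated at 0.06, 0.02 and -0.35. The block left 3 members with an unadjusted p under 0.05. That count, 5 as reported, was 3 with an offset of 4, 9 with array weights and 2 to 7 without 1 replicate. The share of all genes at this level moved too, from 17.1% as reported to 29.4% with array weights. It was 14% with the block, 16.5% with an offset of 4 and 10.7% to 23% without 1 replicate. The cause of these changes was not tested, though fits without a replicate hold fewer samples.

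Herpud1 kept its direction in all 18 alternatives. Its difference was -1.17 (adjusted p = 0.0387) with the random block, -1.35 (adjusted p = 0.0195) with array weights and -1.42 to -0.98 without 1 replicate, in which range -1.39 without KO replicate 3 passed (adjusted p = 0.0493). Over the alternatives its adjusted p ran from 0.0195 to 0.330, that of Derl2 from 0.0245 to 0.257 (differences 0.34, with the mean of all bright probes, to 0.78) and that of Xbp1 from 0.0423 to 0.547 (-0.89 to -0.53). The Calr difference ran from 0.37 to 1.00. The median over the members stayed between -0.02 and 0.08. The translocon median, 0.02 as reported, was 0.12 with array weights and 0.0099 to 0.12 without 1 replicate, which exceeds its small spread of 0.05. Uncalled differences near 0 changed sign. That of Hspa5 was 0.013 with the 1.1 arrays as labelled and ran from -0.18 to 0.077 without 1 replicate, positive without KO replicate 1 or WT replicate 1. The same fits gave -0.0092 to 0.195 for Hsp90b1 (negative without KO replicate 2), -0.018 to 0.235 for P4hb (negative without KO replicate 3) and -0.071 to 0.143 for Sec61b (negative without KO replicate 2, KO replicate 3 or WT replicate 1). With centring on 13 ribosomal genes the median over all genes was 0.03 in place of 0.02, and 35 of 69 called genes were higher in place of 29 of 70. Dim probes such as those of Manf, Ern1, Derl1, Derl3, Canx and Ssr1 lie at the noise, which limits any statement about these genes.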
